A study of Rattus norvegicus with 18 samples.

Results

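GABA is the main inhibitory transmitter of the cerebral cortex. It is made from glutamate by 2 glutamate decarboxylases, Gad1 and Gad2, and is packed into synaptic vesicles by the vesicular inhibitory amino acid transporter Slc32a1. Released GABA opens GABA-A receptors, chloride channels that usually combine alpha and beta subunits with a gamma or delta subunit, and it also acts on metabotropic GABA-B receptors. The 7 genes described here are the 2 decarboxylases, Slc32a1, the GABA-A alpha subunits Gabra2 and Gabra5, the beta subunit Gabrb2, and Gabrd, the delta subunit, which is found in extrasynaptic receptors. They were taken by symbol from the 30735 genes of a count table, and all 7 were among the 18444 genes that passed the filter on low counts and were tested.

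RNA from the cerebral cortex of 18 adult Sprague Dawley rats, 8 to 10 weeks old, was sequenced, with 1 library per rat and 6 rats in each group. In the SAH 1d and SAH 7d groups, subarachnoid hemorrhage (SAH) was made under pentobarbital anesthesia by perforating an intracranial artery with a filament passed through the internal carotid artery, and cortex was taken 1 day or 7 days later. The sham group had the same anesthesia and surgery without the perforation. The methods name the whole cortex of the operated side, whereas the deposited protocol names both sides, so the hemisphere is not settled, and no source used here gives the animals' sex. Libraries held 27270026 to 38271014 counts.

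Tissue markers are described first, although the lists were chosen with earlier results of these data known. Mean log2 CPM (counts scaled to libraries of 1000000) of 8 general neuron markers lay between 7.85 and 9.62 in all 18 libraries. The score of 8 striatal markers ranged from 4.55 to 7.42 in sham, from 4.02 to 6.30 in SAH 1d and from 3.33 to 6.72 in SAH 7d. The striatum is rich in GABA neurons, and its share in each dissected piece was not tested. A pair of libraries stood apart. The 2 neutrophil markers tested scored 4.0 in SAH 1d-3 and 3.31 in SAH 7d-5, against at most 0.823 in the other 16 libraries, and SAH 7d-5 also had the highest microglia score, 7.66, and the lowest neuron score. The score of 4 hippocampal markers was 3.03 in SAH 1d-3, against at most 2.40 in the other libraries. The excitatory cortical neuron score of SAH 1d-3 was 5.16, against 6.05 to 6.40 in the rest of its group. The share of hippocampus in each piece was not tested. The values of the 7 genes that rest on SAH 1d-3 and SAH 7d-5 and the counts over the wider list are therefore also given without these 2 libraries. Because whole tissue was sequenced, fewer cells of a type and less RNA per cell cannot be told apart in any value below.

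The promoters of 4 of the genes are shown for comparison within the family. Gad1 and Gad2 make the same product, and both passed the test on day 1 without SAH 1d-3 (adjusted p = 0.00472 and 0.0293, edgeR) but only Gad1 with it, a difference between the 2 genes that was not tested. Gabra5 and Gabrd were the 2 genes whose SAH 1d and sham values did not overlap. Both were lower in SAH 1d, a separation that 5.41% of all genes tested showed in this direction. Each sequence is the 250 bases before the start of the gene in RefSeq, build GRCr8, written 5′ to 3′ on the strand of the gene. The windows are chr3:75777202-75777451 on the plus strand for Gad1, chr17:89671468-89671717 on the plus strand for Gad2, chr1:117516607-117516856 on the minus strand for Gabra5 and chr5:171252710-171252959 on the minus strand for Gabrd. Capitals mark a TATA box (TATAAA) or a GC box (GGGCGG, the motif of Sp1), each searched on both strands, where the reverse of the GC box reads CCGCCC.
Gad1: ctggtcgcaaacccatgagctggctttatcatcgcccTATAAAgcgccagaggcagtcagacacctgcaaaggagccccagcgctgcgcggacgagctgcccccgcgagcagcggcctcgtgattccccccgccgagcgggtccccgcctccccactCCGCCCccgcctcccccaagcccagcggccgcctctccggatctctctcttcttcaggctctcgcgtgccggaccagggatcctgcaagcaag
Gad2: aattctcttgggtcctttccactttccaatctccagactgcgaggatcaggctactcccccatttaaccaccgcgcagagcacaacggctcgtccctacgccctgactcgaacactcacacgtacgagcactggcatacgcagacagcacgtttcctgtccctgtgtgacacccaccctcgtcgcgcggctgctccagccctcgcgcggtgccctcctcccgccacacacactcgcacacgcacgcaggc
Gabra5: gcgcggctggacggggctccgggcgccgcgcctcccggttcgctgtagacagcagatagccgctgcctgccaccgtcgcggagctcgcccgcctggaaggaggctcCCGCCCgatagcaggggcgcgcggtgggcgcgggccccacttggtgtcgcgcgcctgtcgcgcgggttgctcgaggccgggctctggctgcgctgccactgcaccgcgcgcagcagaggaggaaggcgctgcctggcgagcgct
Gabrd: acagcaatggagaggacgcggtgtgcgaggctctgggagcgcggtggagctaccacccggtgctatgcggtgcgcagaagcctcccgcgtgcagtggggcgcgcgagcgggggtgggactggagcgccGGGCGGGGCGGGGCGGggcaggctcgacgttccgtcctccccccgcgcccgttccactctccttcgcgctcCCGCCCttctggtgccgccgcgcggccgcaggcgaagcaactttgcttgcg

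The Gad1 window held 1 TATA box and 1 GC box, whereas neither motif was found in the Gad2 window. The Gabra5 window held 1 GC box. The Gabrd window held 4, and 3 of these overlap each other by 1 base in a single run. Among 27457 RefSeq promoters of the same length, 13.1% held a TATA box and 32.4% held a GC box. Guanine and cytosine made up 68.4% of the Gad1 window, 62.0% of that of Gad2, 76.4% of that of Gabra5 and 74.0% of that of Gabrd, against a median of 52.0% over all promoters. Of the other members with an entry, Slc32a1 had 73.6% and 1 GC box, and Gabrb2 had 43.2% and neither motif. A cAMP response element (TGACGTCA) and an EGR site (GCGTGGGCG) were also searched and were found in none of the 6 windows, and they were present in 1.7% and 0.514% of all promoters. These are matches of letters, not measured binding. Gabra2 had no entry.

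One day after SAH, 5 of the 7 genes were lower than in sham and none was higher. The 5 were Gad1, Slc32a1, Gabra5, Gabrb2 and Gabrd, with log2 fold changes between -0.33 and -0.81, so that no gene reached a 2-fold change, which 6.64% of all genes tested did at the same adjusted p. Gad2 and Gabra2 also had values below 0, as did 49.1% of all genes, but did not pass the test. At the same threshold, an adjusted p under 0.05 in the edgeR quasi-likelihood test, 10.5% of all 18444 genes were lower and 14.9% were higher. The median log2 fold change was -0.45 over the 7 genes and 0.009 over all genes tested. Without SAH 1d-3 the test called 6 of 7 genes lower, Gad2 being added, where 13.0% of all genes were lower. The count was 1 when all 18 libraries shared 1 estimate of spread or when the authors' FPKM were tested with limma, and it was 1 when sham-5 was left out. In each of these fits the remaining gene was Gabra5. The count was 2 without sham-6 and 3 without sham-4, SAH 1d-2 or SAH 1d-4.

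**Figure D1:**
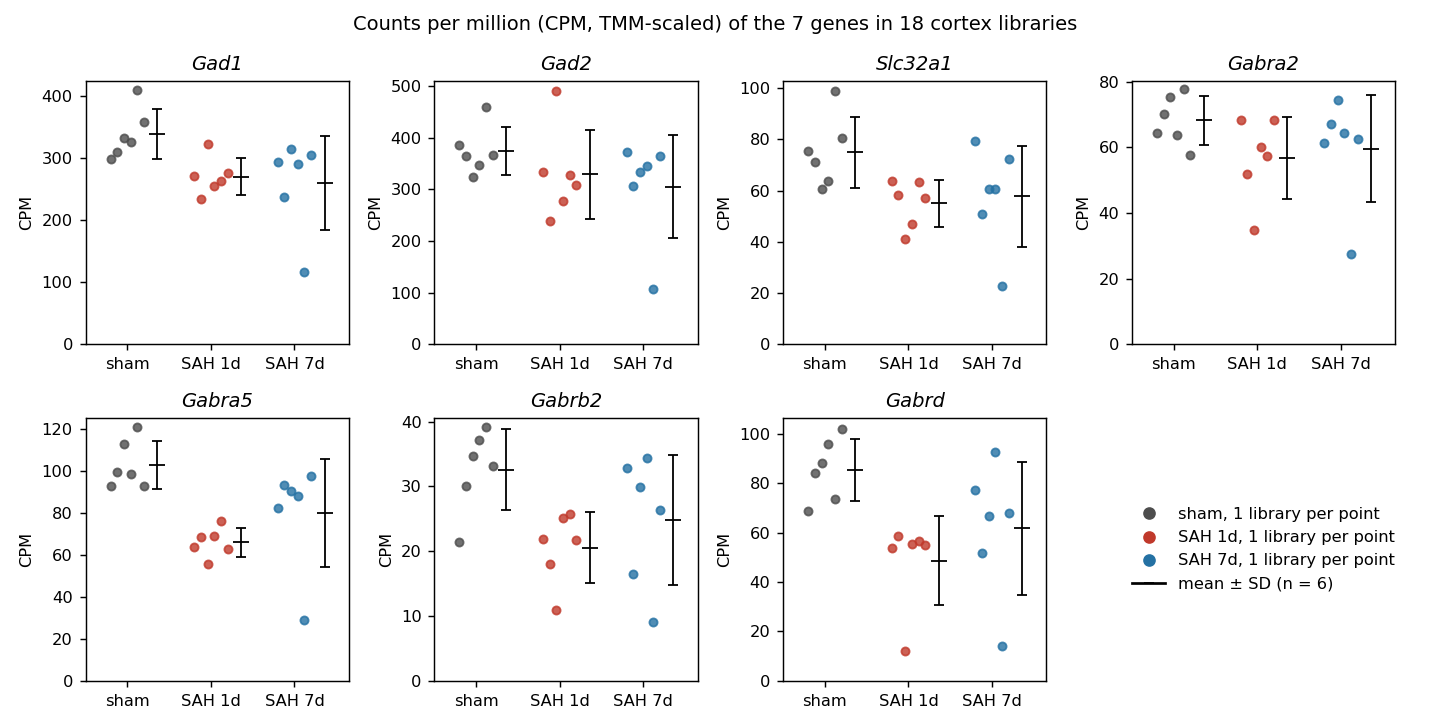
CPM of the 7 genes (y axis, from 0) in the 6 libraries of sham, SAH 1d and SAH 7d (x axis), with 1 point per library and the mean ± SD beside it. The Gabra5 and Gabrd points of SAH 1d lie wholly below those of sham, as for 5.41% of all genes tested. The lowest SAH 7d point in each panel is SAH 7d-5.

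Among the enzymes, Gad1 is the decarboxylase found throughout the cell body. Its CPM ranged from 298 to 409 in sham with a median of 329, from 233 to 322 in SAH 1d with a median of 267, and from 116 to 315 in SAH 7d with a median of 292. The sham and SAH 1d ranges overlapped only through SAH 1d-3, the highest library of its group, and 5 of 6 SAH 1d libraries lay below every sham library. Gad1 fell by 0.33 on the log2 scale (SE 0.10, adjusted p = 0.0251). Without SAH 1d-3 the log2 fold change was -0.38 with an adjusted p of 0.00472. The call was lost when sham-5, sham-6 or SAH 1d-2 was left out, with adjusted p between 0.0516 and 0.0572, and adjusted p ranged from 0.00213 to 0.205 over its 24 alternatives.

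Gad2, the decarboxylase of nerve terminals, lay between 325 and 459 CPM in sham with a median of 365. In SAH 1d it lay between 239 and 491 with a median of 318. SAH 1d-3 had the highest Gad2 level of all 18 libraries, although it had the lowest Slc32a1, Gabra2, Gabra5, Gabrb2 and Gabrd levels of its group. With all libraries the log2 fold change of Gad2 was -0.18 (SE 0.15, adjusted p = 0.391). Without SAH 1d-3 it was -0.33 with an adjusted p of 0.0293, and adjusted p ranged from 0.0293 to 0.772 over the 24 alternatives. The ratio of Gad2 to Gad1 CPM was 0.98 to 1.30 in sham and 1.02 to 1.25 in the other 5 SAH 1d libraries, but 1.53 in SAH 1d-3.

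Slc32a1 loads GABA and glycine into vesicles and marks inhibitory neurons. It ranged from 60.5 to 99.0 CPM in sham with a median of 73.3, from 41.2 to 63.7 in SAH 1d with a median of 57.6, and from 22.7 to 79.2 in SAH 7d with a median of 60.7. The groups sham and SAH 1d overlapped over a narrow range, and 4 of 6 SAH 1d libraries lay below every sham library. Slc32a1 fell by 0.45 on the log2 scale 1 day after SAH (SE 0.14, adjusted p = 0.0294). Without SAH 1d-3 its adjusted p was 0.036. The call was lost without sham-5, sham-6 or SAH 1d-4, with adjusted p of 0.06 to 0.0659, and over 24 alternatives adjusted p ranged from 0.00798 to 0.202.

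The alpha subunits differed in how far they separated from sham. Gabra5, which is part of receptors that carry tonic inhibition, ranged from 93.1 to 121 CPM in sham with a median of 99.3 and from 55.7 to 76.4 in SAH 1d with a median of 66.5. Every SAH 1d library was below every sham library, a pattern that 5.41% of all genes tested showed in this direction. Gabra5 fell by 0.64 on the log2 scale (SE 0.09, adjusted p = 0.000527) and was called in all 24 alternatives, with adjusted p between 1.6e-09 and 0.0422. Gabra2, an alpha subunit enriched at synapses on the axon initial segment, ranged from 57.8 to 77.7 CPM in sham and from 34.9 to 68.4 in SAH 1d, so that the groups overlapped widely. Its log2 fold change was -0.26 (SE 0.14, adjusted p = 0.194), and none of its 24 alternatives passed the threshold.

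Gabrb2, a widespread beta subunit of the adult brain, ranged from 21.5 to 39.1 CPM in sham with a median of 33.9 and from 10.9 to 25.7 in SAH 1d with a median of 21.8. The overlap came from sham-1, the lowest sham library. Gabrb2 fell by 0.66 on the log2 scale (SE 0.19, adjusted p = 0.0243). Without SAH 1d-3 the adjusted p was 0.0138, and without sham-4 or sham-5 it was 0.0519 and 0.0548. Over its 24 alternatives adjusted p ranged from 0.00211 to 0.129.

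With all libraries Gabrd gave the largest fold change of the 7 genes on day 1 and the most uneven values. It ranged from 68.7 to 102 CPM in sham with a median of 86.1, and from 12.2 to 58.6 in SAH 1d with a median of 55.2. The groups did not overlap, as for 5.41% of all genes tested in this direction. The other 5 SAH 1d libraries lay between 53.7 and 58.6 CPM, whereas SAH 1d-3 was at 12.2. Gabrd fell by 0.81 on the log2 scale (SE 0.28, adjusted p = 0.0483). Without SAH 1d-3 the fold change was smaller, -0.61, close to the -0.60 of Gabra5 in that fit, and the adjusted p was 0.000481. The call with all libraries was close to the threshold and was lost in 17 of 24 alternatives, 10 of them with 1 library left out, any but sham-1 and SAH 1d-3, where adjusted p reached 0.0952. Over all 24 alternatives adjusted p ranged from 0.000481 to 0.168.

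**Figure D2:**
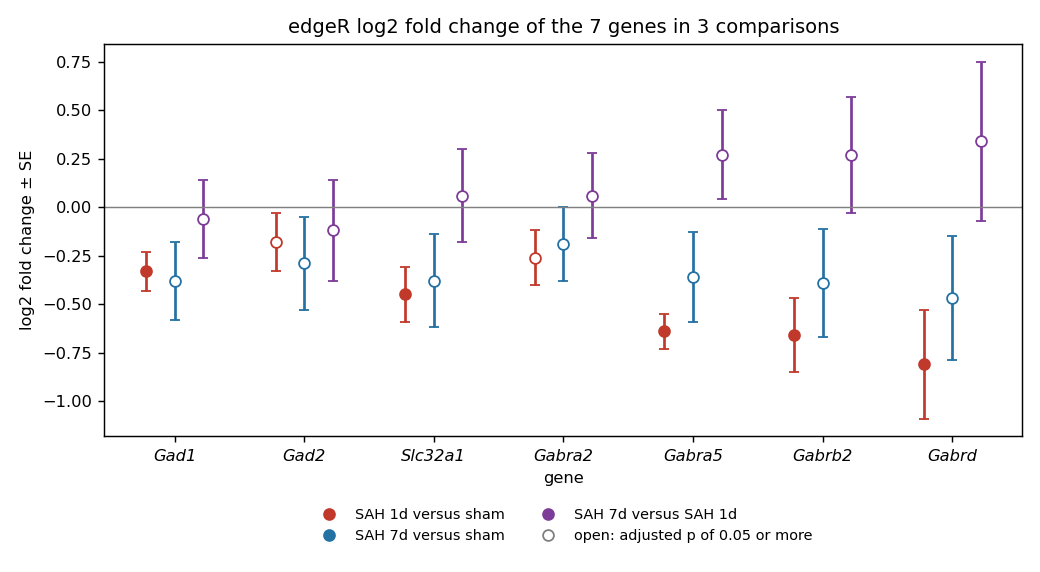
Log2 fold change ± SE (y axis) of each of the 7 genes (x axis) in SAH 1d versus sham, SAH 7d versus sham and SAH 7d versus SAH 1d, from edgeR with 6 libraries per group. Filled points have an adjusted p under 0.05 and are the 5 genes lower in SAH 1d than in sham, and every SAH 7d comparison is open.

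General neuron markers moved in the same direction on day 1. All 8 were lower in SAH 1d than in sham, with a median log2 fold change of -0.59, and their score was 9.50 ± 0.169 in sham (SD, n = 6), 8.93 ± 0.158 in SAH 1d and 9.16 ± 0.659 in SAH 7d. Without SAH 1d-3 the score difference between SAH 1d and sham was -0.51. Of 8 excitatory cortical neuron markers 4 were lower, where 10.5% of all genes were. Of 8 striatal markers 2 were lower and all 8 had log2 fold changes below 0, with a median of -1.11. The striatal score was 6.29 ± 0.999 in sham and 5.21 ± 0.849 in SAH 1d (SD, n = 6), with ranges that overlapped. Its difference of -1.08 was larger than the -0.56 of the neuron score, but its spread was also wider. Without SAH 1d-3 the striatal difference was -0.94. The part of striatal content in the fold changes of the 7 genes was not tested. Of 14 interneuron markers tested, 1 was lower, Lamp5 (log2 fold change -1.17, adjusted p = 0.001), which was named after its value was seen. Log2 fold changes were below 0 for 12 of the 14, with a median of -0.21, where 49.1% of all genes were below 0. The interneuron score was 4.54 ± 0.09 in sham and 4.24 ± 0.151 in SAH 1d (SD, n = 6). It differed by -0.3 between SAH 1d and sham and by -0.24 without SAH 1d-3, a difference that was not tested. Pvalb, Sst and Vip, which mark 3 main classes of cortical interneuron, had log2 fold changes of -0.40, -0.27 and -0.20 with adjusted p of 0.264, 0.212 and 0.439.

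Set against the neuron score of the same library, 31 of the 42 values of the 7 genes in SAH 1d lay within the sham range of the same gene. The count in SAH 7d was also 31 of 42. No share over all genes is given and the 7 genes come from the same 6 rats, so no conclusion is drawn from these counts. In SAH 1d it was 6 of 6 libraries for Slc32a1, 5 each for Gad2, Gabra5, Gabrb2 and Gabrd, 3 for Gad1 and 2 for Gabra2. The Gad1 and Gabra2 values outside the sham range lay above it. The log2 CPM of Gabra5 minus the neuron score was -3.0 to -2.62 in sham and -3.02 to -2.71 in SAH 1d. For Gad1 it was -1.27 to -0.94 in sham and -1.06 to -0.34 in SAH 1d. Gabrd in SAH 1d-3 was at -5.05, whereas the other SAH 1d libraries were at -3.27 to -2.94, and Gad2 in SAH 1d-3 was at 0.27, above the score. These differences were not tested, and the part of neuron content in the fold changes above was not tested.

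**Figure D3:**
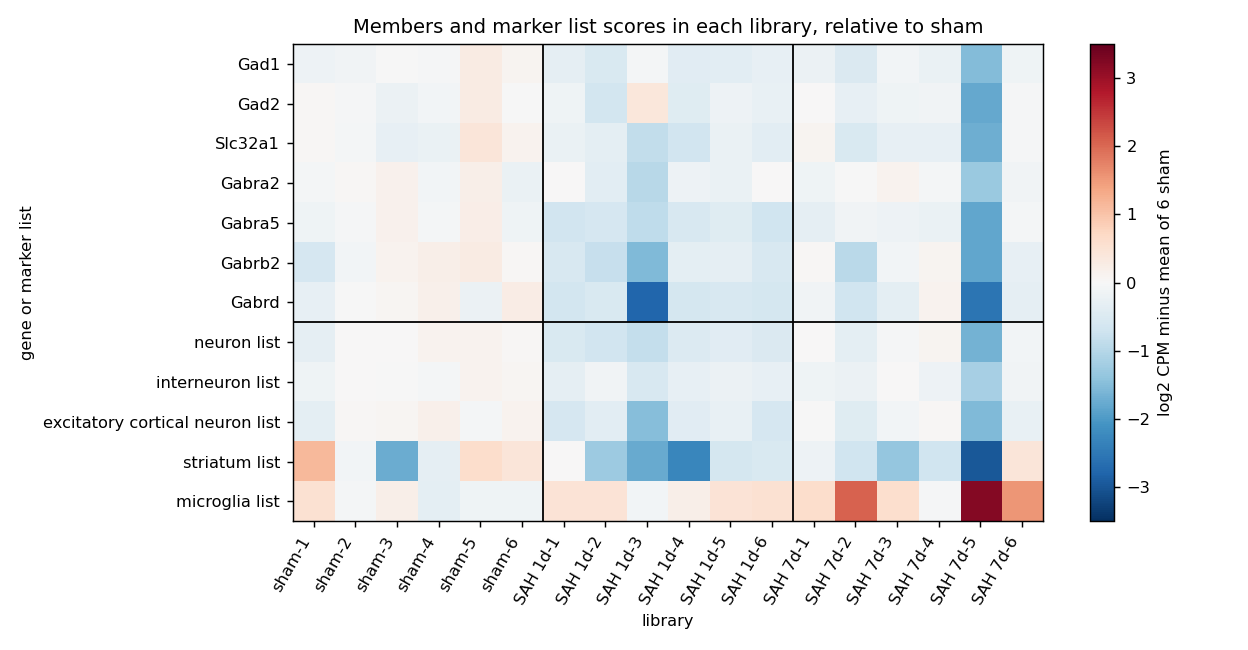
Log2 CPM minus the mean of the 6 sham libraries (colour scale) for the 7 genes and for 5 marker list scores (rows) in each of 18 libraries (columns). SAH 7d-5 is low in all 7 genes and in the neuron score and high in the microglia score, and SAH 1d-3 is low in Gabrd but not in Gad2.

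On day 7 none of the 7 genes passed the test against sham, which does not show that they were unchanged. The log2 fold changes were all below 0, as were those of 50.6% of all genes, from -0.19 for Gabra2 to -0.47 for Gabrd, with edgeR adjusted p from 0.363 to 0.579. None of the 7 reached an unadjusted p under 0.05, which 15.4% of all genes did, and DESeq2 and limma called none of them either. In edgeR no gene of the whole table was called in this comparison (0.0% of those tested). DESeq2 called 53 genes lower (0.287%) and 406 higher (2.2%). SAH 7d-5 was the lowest of its group for every one of the 7 genes. Without it Gad1 ranged from 237 to 315 CPM, Gabra5 from 82.4 to 97.9 and Gabrd from 51.9 to 92.5, and all 7 ranges overlapped those of sham. Without SAH 7d-5 the log2 fold changes against sham were nearer 0, from -0.04 for Gabra2 to -0.25 for Gabrd, with a median of -0.21 over the 7 genes in place of -0.38, and none was called. The neuron score difference between SAH 7d and sham was -0.34 with SAH 7d-5 and -0.08 without it. Its microglia score was 7.66 and its monocyte and macrophage score was 7.10, against at most 6.52 and 4.02 in the other 17 libraries.

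Between SAH 1d and SAH 7d none of the 7 genes passed the test, where 1.37% of all genes did. Gabrd, Gabrb2 and Gabra5 had the largest log2 fold changes, 0.34 (SE 0.41), 0.27 (SE 0.30) and 0.27 (SE 0.23), with adjusted p of 0.749, 0.725 and 0.617. Gabra5 lay between 82.4 and 97.9 CPM in 5 of 6 SAH 7d libraries, above the highest SAH 1d library at 76.4, and at 28.9 in SAH 7d-5. Without SAH 7d-5 Gabra5 was higher in SAH 7d than in SAH 1d, with a log2 fold change of 0.45 and an adjusted p of 0.00956, where 3.18% of all genes were higher. Without SAH 7d-5 and SAH 1d-3 the values were 0.40 and 0.00328, and adjusted p ranged from 0.00328 to 1.0 over the 24 alternatives. Gad1, Gad2, Slc32a1 and Gabra2 had log2 fold changes between -0.12 and 0.06. SAH 1d and SAH 7d were each compared with the same 6 sham libraries, so those 2 comparisons are not independent.

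Levels of different genes were compared per transcript length, in FPKM. In sham the mean was 94.8 ± 13.3 for Gad1, 62.8 ± 8.91 for Gad2, 44.3 ± 6.83 for Gabrd and 35.9 ± 5.91 for Gabra5 (SD, n = 6). It was 30.7 ± 4.05 for Gabra2, 29.3 ± 5.96 for Slc32a1 and 14.5 ± 3.12 for Gabrb2. Gad1 was above Gad2, Gad2 above Gabrd and Slc32a1 above Gabrb2 in every one of the 18 libraries. The middle of this order was not settled. Gabrd exceeded Gabra5 in 5 of 6 sham libraries, in 5 of 6 SAH 1d libraries and in 4 of 6 SAH 7d libraries. Gabra5 exceeded Gabra2 in 6, 3 and 4 libraries, and Gabra2 exceeded Slc32a1 in 3, 5 and 4 libraries.

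A wider list of the GABA system was read from the same fits. It named 43 genes, the 7 above among them, of which 39 had a row and 38 passed the filter. On day 1, 20 of the 38 were lower than in sham, 4 were higher and 14 did not pass the test, with a median log2 fold change of -0.42, against 10.5% lower and 14.9% higher over all genes. Without SAH 1d-3, 22 were lower and 2 were higher. With all 18 libraries in 1 fit the number called was 8, of which 6 were lower.

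GABA-A receptor subunits gave 9 lower and 2 higher of 18 tested. Gabra4, which pairs with the delta subunit in extrasynaptic receptors, fell by 0.77 on the log2 scale (adjusted p = 0.00315). The gamma subunit Gabrg1 fell by 0.81 (adjusted p = 0.00627) and the alpha subunit Gabra3 by 0.41 (adjusted p = 0.0167). These 3 kept the call in all 12 fits with 1 library left out. Gabra4 and Gabrg1 also kept it in all 24 alternatives, with adjusted p up to 0.0418 and 0.0329, whereas Gabra3 lost it in the fit with all 18 libraries and in the FPKM fits, with adjusted p up to 0.159. The pair that rose was scarce. Gabre, the epsilon subunit, rose from a mean of 0.486 to 2.04 CPM (log2 fold change 2.07, SE 0.71, adjusted p = 0.048), and Gabrr1, a rho subunit best known from retina, rose from 0.304 to 0.772 CPM (log2 fold change 1.33, adjusted p = 0.0316). Values at this level rest on few counts. Single libraries decided both calls, since they were kept in 4 and 6 of the 12 fits that left 1 out, with adjusted p up to 0.0915 and 0.0687. The Gabre call was lost without sham-2, sham-3, sham-4, sham-6, SAH 1d-1, SAH 1d-3, SAH 1d-5 or SAH 1d-6, and the Gabrr1 call without sham-3, sham-5, sham-6, SAH 1d-1, SAH 1d-2 or SAH 1d-4. In all, the Gabre and Gabrr1 calls were kept in 10 and 14 of the 21 alternatives that gave a value.

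Both GABA-B receptor subunits were lower 1 day after SAH, Gabbr1 with a log2 fold change of -0.42 (adjusted p = 0.00632) and Gabbr2 with one of -0.51 (adjusted p = 0.0221). Of the plasma membrane transporters that take GABA back up, the astrocytic Slc6a11 fell from 42.7 ± 8.46 to 22.8 ± 7.30 CPM (SD, n = 6; log2 fold change -0.90, adjusted p = 0.0157). Abat, the transaminase that breaks GABA down, fell by 0.47 (adjusted p = 0.035). At the inhibitory postsynapse the adhesion molecules Nlgn2 and Slitrk3 and the receptor partner Shisa7 were lower (log2 fold changes -0.37, -0.71 and -0.50, adjusted p = 0.00521, 0.00802 and 0.0183), whereas the trafficking protein Gabarap rose by 0.31 (adjusted p = 0.0129). Gphn, the scaffold gephyrin, had a log2 fold change of -0.27 and an adjusted p of 0.0646. The Abat call was kept in 5 of the 12 fits with 1 library left out and was lost without any 1 sham library or SAH 1d-6, with adjusted p up to 0.0643. The other called genes in this paragraph kept their call in all 12, but none kept it in all 24 alternatives. Gabbr1, Gabbr2, Nlgn2, Shisa7 and Gabarap lost it with all 18 libraries in 1 fit, where adjusted p ran up to 0.245 for Gabarap. Gabbr2, Nlgn2 and Shisa7 also lost it in the FPKM fits, and over the alternatives adjusted p reached 0.158, 0.0857 and 0.135. Gabbr1, Slc6a11 and Slitrk3 lost it on log2(FPKM + 1) with no filter, and over the alternatives reached 0.124, 0.0686 and 0.058. Over its alternatives the adjusted p of Abat reached 0.182.

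**Figure D4:**
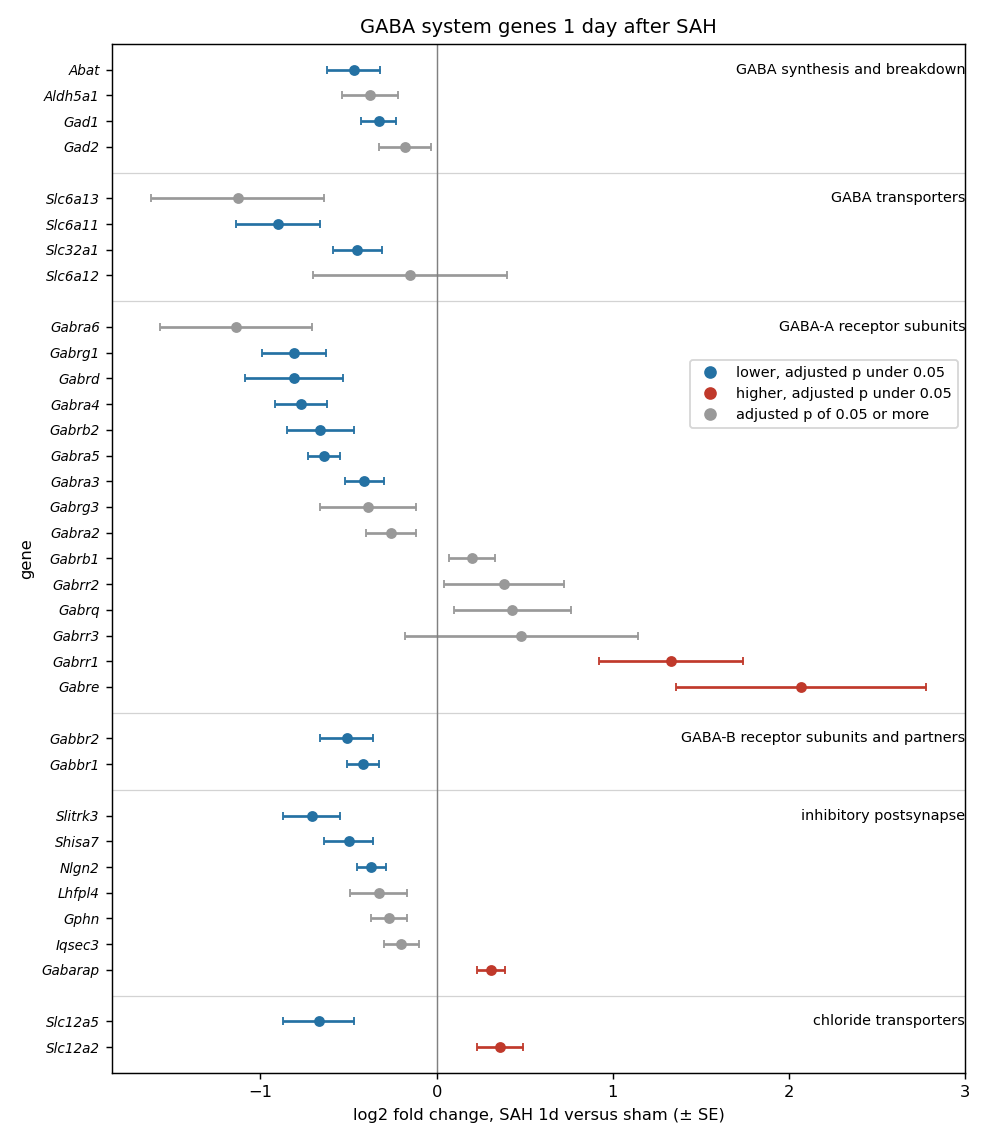
Log2 fold change ± SE in SAH 1d versus sham (x axis) of 34 of the 38 GABA system genes tested (y axis), grouped by role, from edgeR with 6 libraries per group. Blue points, 16 genes, were lower and red points, 4 genes, were higher at an adjusted p under 0.05, and grey points did not pass.

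On day 7 none of these 38 genes was called against sham by edgeR. For 1 of them, Gabra4, every SAH 7d library lay below every sham library. It ranged from 248 to 293 CPM in sham and from 61.4 to 240 CPM in SAH 7d. Of all genes tested, 0.428% were separated in this direction. At an unadjusted p under 0.05 there were 4, or 10.5% of the 38, against 15.4% of all genes. Against SAH 1d, Gabre was the only gene of the list that edgeR called, lower in SAH 7d by 2.37 on the log2 scale (SE 0.44, adjusted p = 0.0212), with SAH 1d values of 0.716 to 4.62 CPM and SAH 7d values of 0.267 to 0.581 CPM that did not overlap, a separation that 2.11% of all genes showed in this direction. This call was lost without SAH 1d-1, SAH 7d-1, SAH 7d-2, SAH 7d-4 or SAH 7d-6 (adjusted p = 0.0519 to 0.064), and over 21 alternatives adjusted p ranged from 4.32e-05 to 0.122. Without SAH 7d-5 the number called was 7, with 5 higher in SAH 7d, and without SAH 7d-5 and SAH 1d-3 it was 12, with 10 higher (6.13% of all genes). Among the 10 were Aldh5a1, Gabbr1, Gabra3, Gabra4, Gabra5, Gabrg1, Slc6a11 and Slc6a13, named after their values were seen.

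The direction of the chloride current through GABA-A receptors depends on Slc12a5 (KCC2), which moves chloride out of neurons, and Slc12a2 (NKCC1), which moves it in. On day 1 Slc12a5 fell from 238 ± 26.3 to 150 ± 43.5 CPM (SD, n = 6; log2 fold change -0.67, adjusted p = 0.0246) and Slc12a2 rose from 143 ± 22.0 to 184 ± 31.1 CPM (log2 fold change 0.36, adjusted p = 0.0495). The Slc12a2 call was lost in 15 of 24 alternatives, among them the fit without SAH 1d-3 (adjusted p = 0.0747) and those without any 1 of the other libraries but sham-1 and SAH 1d-2, with adjusted p from 0.0078 to 0.101 over the 24. The Slc12a5 call was kept in 19 of 24 alternatives. It was lost without sham-5 (adjusted p = 0.0523), with all 18 libraries in 1 fit and in the FPKM fits, and adjusted p ranged from 0.000346 to 0.128. The log2 ratio of Slc12a5 to Slc12a2 within each library, in FPKM, was 1.03 to 2.23 in sham, -0.93 to 1.13 in SAH 1d and -0.16 to 1.74 in SAH 7d. Its mean was 1.67 ± 0.38 in sham, 0.57 ± 0.75 in SAH 1d and 1.07 ± 0.70 in SAH 7d (SD, n = 6). The difference between SAH 1d and sham was -1.09 (two-sided exact permutation test, p = 0.00433, adjusted p = 0.026 over 6 tests), and 5 of 6 SAH 1d libraries lay below every sham library. Without SAH 1d-3, whose ratio was -0.93 while the next lowest was 0.70, the difference was -0.79 (exact permutation p = 0.00649, adjusted p = 0.039). The permutation of medians in place of means gave -0.87 with an adjusted p of 0.0779, and adjusted p ranged from 0.026 to 0.0938 over 16 alternatives. SAH 7d differed from sham by -0.60 (exact permutation p = 0.0714, adjusted p = 0.214) and from SAH 1d by 0.50 (exact permutation p = 0.29, adjusted p = 0.413). Slc12a2 is also expressed by glia, endothelium and choroid plexus, and the choroid plexus score was 5.27 in SAH 1d-4 and 5.77 in SAH 1d-6, against at most 2.20 in the other libraries. The endothelial score was highest of all 18 libraries in SAH 1d-3, at 5.42, against 2.95 to 4.76 in the other 17, and SAH 1d-3 also had the highest Slc12a2 level of its group, 235 CPM. The log2 CPM of Slc12a5 minus the neuron score of the same library was -1.67 to -1.55 in sham. In SAH 1d it was -2.66 in SAH 1d-3 and -1.79 to -1.44 in the other libraries. For Slc12a2 it was -2.85 to -1.70 in sham and -1.68 to -0.80 in SAH 1d. The part of neuron content and of these other cell types in the ratio was not tested.

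**Figure D5:**
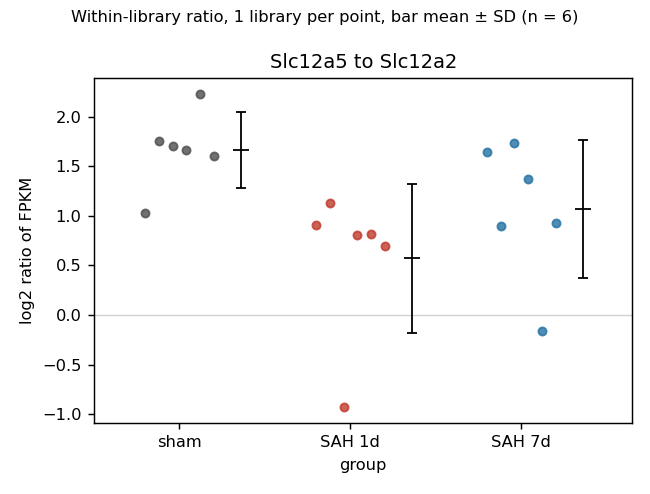
Log2 ratio of FPKM within each library (y axis) of Slc12a5 to Slc12a2 in sham, SAH 1d and SAH 7d (x axis), with 1 point per library and the mean ± SD of 6 libraries beside it. Of the SAH 1d points 5 of 6 lie below all sham points, and SAH 1d-3 is the lowest at -0.93.

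Across the 18 libraries the 7 genes varied together to different degrees. Pearson's r of log2 CPM over the 21 pairs ran from 0.403, for Gad2 and Gabrd, to 0.932, for Gad1 and Gad2, with a median of 0.814. With SAH 7d-5 and SAH 1d-3 left out it ran from 0.118 to 0.839 with a median of 0.593. These values are descriptions over 18 or 16 libraries that share their depth scaling, their groups and their neuron content. The genes most like each member were sought over the whole table. The closest to Gad1 was Tmx4, with r = 0.977, followed by Grm7, a presynaptic glutamate receptor, with 0.966 and Mark1 with 0.961. Fam219a (0.954), Tmx4 (0.95) and Plppr4 (0.949) were closest to Gad2, and Rap1gap (0.95), Ache (0.94), the acetylcholinesterase gene, and Cpne5 (0.939) to Slc32a1. For the alpha subunits they were Nwd2, Pnma2 and Shisa7 for Gabra2 (0.969, 0.96 and 0.957) and Vstm2l, Nlgn1 and Fgf13 for Gabra5 (0.965, 0.961 and 0.96). Gabrb2 was closest to Spock2 (0.976), Camta1 (0.972) and Napb (0.971). Gabrd was closest to Jph3 (0.989), a junctophilin of neurons, Hhatl (0.984) and the potassium channel gene Kcnh3 (0.984). These genes were picked with all 18 libraries. With SAH 7d-5 and SAH 1d-3 left out, r of the same pairs ran from 0.753, for Gabra2 and Shisa7, to 0.964, for Gabrb2 and Spock2. It was 0.947 for Gabrd and Jph3 and 0.797 for Gad2 and Fam219a.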

How the data were processed

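Total RNA from the cortex of 18 rats was sequenced, and the authors deposited raw counts per gene and FPKM (fragment counts scaled by transcript length and library depth), both per library. Per the labels and methods, reads with adapters and low quality were removed, and the rat assembly Rnor_6.0 was used. The submitters' notes name fastp, HISAT2 and DESeq2 1.16.1 and the mouse build mm9, at odds with the rat gene identifiers. No source used here gives the counting program or its strand setting, so antisense reads cannot be told apart.

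Groups were taken from the sample descriptions. Genes were kept with filterByExpr over all 18 libraries, and counts were tested with edgeR 4.0.16 (TMM, quasi-likelihood F test, R 4.3.3) on the 12 libraries of each comparison. The p-values were two-sided and Benjamini-Hochberg adjusted over 18444 genes, with a threshold of 0.05. CPM were TMM-scaled, and log2 CPM used a prior count of 2. Ratios were tested by exact permutation (smallest p 0.00216), adjusted over 6 tests, of which 3 are reported. Alternatives were DESeq2 1.42.0, limma 3.58.1 (voom, and log2 FPKM plus 1 or 0.1 with a mean of at least 0.5 or no filter), other filters and scalings, a replicate block and each library left out. The edgeR fit was tested on simulated counts. The replicate numbers did not pair the libraries: same-number correlations of deviations ran from -0.252 to 0.197.

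Named were all 7 members, the GABA system genes called in any comparison and a fixed set of others, Pvalb, Sst, Vip, Drd1 and Drd2, and the 3 genes most like each member; loci without a gene symbol of their own were passed over. Some listed genes and a ratio are not reported here, although counts over the lists include them. The members and lists were chosen with earlier results of these data known. Drd1 and Drd2 had mean CPM of 40.3 and 36.3 in sham and 24.6 and 14.7 in SAH 1d (adjusted p = 0.27 and 0.0858). Depth was 27270026 to 38271014 counts per library, at which genes near 1 CPM rest on few counts.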

Additional observations from a re-analysis of the deposited data

Results flagged for a closer look

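Several values lay far from the other 5 of their group by Dixon's test at the 95% level. Of 24 groups of 6 values tested, 8 gave such a value, and chance gives about 1 in 20 for a single test. The tests share the same rats and the genes vary together, so these 8 values are not independent. SAH 7d-5 accounted for 6 of them. Its CPM was 116 for Gad1 where the next lowest SAH 7d library had 237, 107 for Gad2 against 307, 22.7 for Slc32a1 against 50.8, and 27.6 for Gabra2 against 61.2. It was 28.9 for Gabra5 against 82.4 and 14.3 for Gabrd against 51.9. SAH 1d-3 gave the other 2, with a Gabrd CPM of 12.2 against 53.7 and a log2 ratio of Slc12a5 to Slc12a2 of -0.93 against 0.70.

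The day 1 and day 7 effects differed for Gabre, by the edgeR test of SAH 7d against SAH 1d, with a log2 fold change of -2.37. Its SAH 1d mean was 2.04 CPM, or 1.53 without SAH 1d-3, and its SAH 7d mean 0.393 CPM. Such low values rest on few counts, and the edgeR call was kept in 7 of the 12 fits with 1 library left out.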

How the results depend on the processing

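Gabra5 kept its direction and call on day 1 in all 24 alternatives. The number of the 7 genes called on day 1, 5 in the reported fit, was 1 with all 18 libraries in 1 fit and 1 in each limma fit on FPKM, and with a library left out it ran from 1 to 6. The number of GABA system genes called on day 1, 24 as reported, was 8 with all libraries in 1 fit, 10 on log2(FPKM + 1) and on log2(FPKM + 0.1), and 7 on log2(FPKM + 1) without a filter. On log2(FPKM + 0.1) the median of all genes moved to 0.109. For SAH 7d against SAH 1d, 0 of the 7 genes as reported became 1 with voom weights and 1 without SAH 7d-5 and SAH 1d-3, and ran from 0 to 1 with a library left out. The GABA system count there, 1 as reported, was 3 with DESeq2, 9 with voom, 12 without both libraries, 0 with at least 10 counts in every library and 0 in each FPKM fit, and ran from 0 to 7 with a library left out. The cause of these changes was not tested, except that fewer samples or genes entered some fits.

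The replicate block, whose numbers do not pair the libraries, called 4 of the 7 genes on day 1, with Gabrd at an adjusted p of 0.0625, and 0 GABA system genes for SAH 7d against SAH 1d. In the exact permutation within same-numbered pairs, the Slc12a5 to Slc12a2 difference on day 1 was -1.09 with an adjusted p of 0.0938, where the smallest p before adjustment over 6 tests is 0.0312, so that this fit could hardly pass. With medians the difference was -0.87 with 0.0779.

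Of the 7 genes, 4 turned sign under some alternative, all in SAH 7d against SAH 1d, where none of these 4 was called as reported. Gad1 was 0.12 with voom and 0.14 without both libraries, and ran from -0.13 to 0.08 with a library left out. Gad2 was 0.18 with voom and 0.21 without both, and ran from -0.2 to 0.06 with a library left out. Slc32a1 was -0.07, -0.08 and -0.07 in the FPKM fits, and ran from -0.05 to 0.23 with a library left out. Gabra2 was -0.03 in each FPKM fit and ran from -0.04 to 0.21 with a library left out.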

Other observations

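Slc6a12, the betaine and GABA transporter, was at 14.3 CPM in SAH 7d-5 and between 0.0716 and 0.916 CPM in the other 17 libraries. It was chosen after its values were seen.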
